A study of Mus musculus with 2 samples.

Results

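The genes described here are 10 cytokines and receptors of the interleukin-1 (IL-1) and interleukin-6 (IL-6) families, taken as the rows carrying their symbols among the 31054 features of 2 bladder single-cell RNA libraries. Of the IL-1 family they hold the ligands Il33 and Il18, the receptors Il1r1 and Il1rl1, and the receptor antagonist Il1rn. Of the IL-6 family they hold the ligands Il6 and Lif and the receptor chains Il6st, Lifr and Osmr. All 10 symbols were present, and each matched 1 row.

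Both libraries came from the bladder of 1 male mouse aged 25 months that carried p16-CreERT2 and R26-LSL-tdTomato. In this genotype the p16 promoter drives a tamoxifen-inducible Cre recombinase, and recombination of the reporter at the Rosa26 locus leaves a cell and its descendants marked by tdTomato. The mouse received tamoxifen on 5 consecutive days, and the bladder was digested with collagenase 2 weeks later. Live cells lacking CD45, a leukocyte surface protein, were sorted on tdTomato, and the positive (Tom+) and negative (Tom-) fractions each gave 1 library. The comparison asks how cells with a history of p16 promoter activity differ from their neighbours in the same aged organ. A reporter marks past activity of the promoter, and does not measure p16 protein or the state of the cell at harvest.

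IL-1 family cytokines act mostly as alarm signals: IL-33 is stored in the nuclei of barrier and stromal cells and released on damage, and IL-18 is made as a precursor that inflammasomes activate. Their receptors pass the signal through MyD88 and IRAK kinases to NF-kB, and the antagonist encoded by Il1rn occupies the IL-1 receptor without signalling. Most IL-6 family cytokines signal through the receptor chain gp130, encoded by Il6st, which pairs with a chain such as LIFR or OSMR and activates JAK kinases and STAT3. Il6 is also widely listed among the secreted factors of senescent cells.

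The Tom+ library held 2783 barcodes and 34455896 unique molecular identifiers (UMIs, each a captured transcript), and the Tom- library 13551 barcodes and 197232860 UMIs. After filters on depth, gene number, mitochondrial share and predicted doublets, 1881 Tom+ cells and 9886 Tom- cells remained, with a median of 11579 and 12773 UMIs per cell. The tdTomato transcript stood at 1237 CPM in the Tom+ cells and 35.4 CPM in the Tom- cells, where CPM is the usual scaling of a UMI count by the total UMIs of the cells it was summed over. The libraries shared 966 cell barcodes, which were carried by 346 of the Tom+ cells and 657 of the Tom- cells used, and the ratios of measured genes are given with and without them. Cells were clustered and named from marker lists, and 6 classes that reached 50 cells in both libraries entered the comparison. Although the submitters describe the sorted cells as stromal, the classes included urothelium. Each library came from the same mouse and each group is 1 library, so no difference below has a replicate check and no p-value is given. Brackets give exact 95% intervals, which cover counting error only, and a ratio is Tom+ CPM over Tom- CPM.

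The promoters of Il6 and Lif are shown because these IL-6 family ligands were found in different cells and, as described below, with different levels of immediate-early transcripts around them. Each run is the RefSeq sequence of build GRCm38.p6 that covers 250 bases before and 50 bases after the annotated start, 5′ to 3′ on the plus strand. Capitals mark matches to the AP-1 motif TGANTCA or a 10-base NF-kB motif. The Il6 window is chr5:30012864-30013163 and the Lif window is chr11:4257318-4257617.
Il6: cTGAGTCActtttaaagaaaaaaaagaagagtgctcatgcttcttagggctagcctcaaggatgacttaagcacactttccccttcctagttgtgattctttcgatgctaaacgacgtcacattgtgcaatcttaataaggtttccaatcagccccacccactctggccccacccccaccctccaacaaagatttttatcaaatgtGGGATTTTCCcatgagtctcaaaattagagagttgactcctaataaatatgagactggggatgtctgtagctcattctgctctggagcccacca
Lif: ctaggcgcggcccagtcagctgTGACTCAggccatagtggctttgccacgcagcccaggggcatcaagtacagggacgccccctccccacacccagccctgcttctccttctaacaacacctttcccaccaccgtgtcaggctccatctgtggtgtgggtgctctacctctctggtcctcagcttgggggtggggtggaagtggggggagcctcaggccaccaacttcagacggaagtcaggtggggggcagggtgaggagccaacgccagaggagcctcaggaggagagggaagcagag
The Il6 window held an AP-1 match at bases 2 to 8 and an NF-kB match at bases 207 to 216, counted from the 5′ end. The Lif window held an AP-1 match at bases 23 to 29 and none for NF-kB. Both strands were searched, and the motifs do not overlap in these windows. Among 32851 promoters of the same length, 7.81% held the AP-1 motif and 0.411% the NF-kB motif. All 10 genes had at least 1 such promoter, 16 in total. The NF-kB motif matched in 1 of the 16, that of Il6, and the AP-1 motif in 4, the others being promoters of Il1rn and Osmr. Neither the STAT motif TTCNNNGAA nor the cyclic AMP response element TGACGTCA matched any of the 16, against 8.30% and 1.79% of all promoters. These matches are letters in a window and say nothing of binding in these cells.

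Il33 had its highest level in lymphatic endothelial-like cells, at 196 CPM (157 to 241) in Tom+ against 197 CPM (173 to 224) in Tom-. Mesothelial-like cells, which line the outer surface of the bladder, followed at 118 CPM in Tom+ against 125 CPM in Tom-. In fibroblast-like cells it was 118 CPM (110 to 127) in Tom+ against 82.6 CPM (80.2 to 85.0) in Tom-. In the Tom+ library the mesothelial and fibroblast levels could not be ordered, since their intervals overlap, while in the Tom- library they lay apart. Basal or intermediate urothelial-like cells held 45.2 CPM in Tom+ against 41.0 CPM in Tom-, blood endothelial-like cells 24.3 and 29.2 CPM, and umbrella urothelial-like cells 12.1 and 12.7 CPM. The 69 erythroid-like cells, found only in the Tom- library and set beside the classes for comparison, gave 5.66 CPM (2.59 to 10.7). They held the acute-phase gene Saa3 at 394 CPM, against 21.4 CPM in Tom- fibroblast-like cells. Their levels therefore cannot stand for free RNA common to all classes. The class order of Il33 was thus the same in both libraries apart from the mesothelial and fibroblast tie.

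Il18 was concentrated in the mesothelium. Mesothelial-like cells held 103 CPM (93.0 to 115) in Tom+ against 120.5 CPM (115 to 126) in Tom-, with a UMI in 78.9% of the Tom+ cells and 82.5% of the Tom- cells at median depths of 19556 and 20385.5 UMIs. In the erythroid-like cells, whose median depth was 23444 UMIs, the share was 8.70%. An unnamed cluster led by Ncam1, Gdf6 and Col6a5 followed with 37.0 CPM in Tom+ against 52.6 CPM in Tom-, and fibroblast-like cells with 16 and 18.5 CPM. Within the umbrella cells, the Krt20-led cluster held 29.4 CPM in Tom+ against 28.9 CPM in Tom-, against 5.26 and 5.40 CPM in the larger umbrella cluster. The erythroid-like level was 6.29 CPM (3.02 to 11.6), so Il18 in the larger umbrella cluster, in basal cells (3.27 CPM in Tom+ against 4.26 CPM in Tom-) and in endothelium did not stand above it. Whether Il18 in those cells was background was not tested.

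Il1r1, which encodes the signalling receptor for IL-1, had its highest level in the same Ncam1, Gdf6 and Col6a5 cluster, at 218 CPM (189 to 250) in 63 Tom+ cells and 222 CPM (206 to 238) in 189 Tom- cells. Mesothelial-like cells stood at 87.3 CPM (77.8 to 97.7) in Tom+ against 67.8 CPM (63.9 to 71.8) in Tom-. Fibroblast-like cells had 57.0 CPM in Tom+ against 55.3 CPM in Tom-, and blood endothelial-like cells 42.7 and 40.4 CPM. The lymphatic, basal and umbrella classes lay between 14.4 and 22.7 CPM in both libraries, against 11.3 CPM (6.71 to 17.9) in erythroid-like cells. The unnamed cluster also carried Il33 at 107 CPM in Tom+ against 117 CPM in Tom-, so the IL-1 receptor and IL-33 transcripts were both abundant there.

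Il1rl1, which encodes the IL-33 receptor ST2, was nearly absent. No UMI was seen in 743 Tom+ or 4855 Tom- fibroblast-like cells, which allows at most 0.449 CPM in Tom+ against 0.0537 CPM in Tom- at 3 counts. Its 21 UMIs in the Tom- cells used came mostly from mesothelial-like cells, with 18 UMIs in 14 cells (1.07 CPM), and the Tom+ cells had 0. The 3-count limit in the 161 Tom+ mesothelial-like cells was 0.865 CPM. The receptor transcript therefore did not count as measured beside Il33 in any compared class. In Tom- mesothelial-like cells an Il1rl1 UMI was found in 10 of the 558 cells with Il33 (1.79%) and in 1.92% of those without.

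Il1rn was found in the urothelium and almost nowhere else. Basal or intermediate cells held 12 UMIs (2.06 CPM, 1.07 to 3.61) in Tom+ and 17 UMIs (0.690 CPM, 0.402 to 1.10) in Tom-. Umbrella cells held 17 UMIs (1.26 CPM) in Tom+ and 96 UMIs (2.07 CPM) in Tom-. Fibroblast-like cells gave 0 UMIs in Tom+ and 1 UMI in Tom-, and endothelial and mesothelial-like cells gave 0 in both libraries. The basal ratio of 2.99 (1.30 to 6.65) and the umbrella ratio of 0.612 (0.342 to 1.03) point in opposite directions. They were 3.03 (1.13 to 7.41) and 0.628 (0.330 to 1.11) without the shared barcodes, and both rest on levels under the 10 CPM that counted as measured.

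Il6 came from few cells. Mesothelial-like cells held 12.7 CPM (9.21 to 17; 44 UMIs in 15 of 161 cells) in Tom+ against 12.3 CPM (10.7 to 14.1; 208 UMIs in 68 of 766 cells) in Tom-. Blood endothelial-like cells held 12.1 CPM (7.51 to 18.5; 21 UMIs in 11 cells) in Tom+ against 11.2 CPM (8.47 to 14.5; 57 UMIs in 20 cells) in Tom-. The cell with the most Il6 gave 9 of the 21 Tom+ endothelial UMIs and 15 of the 57 Tom- endothelial UMIs. Fibroblast-like cells had 5 UMIs in 4 of 743 cells (0.748 CPM) in Tom+ and 68 UMIs in 34 of 4855 cells (1.22 CPM) in Tom-. Lymphatic endothelial-like cells had 0 UMIs in both libraries, which allows at most 6.67 CPM in Tom+ against 2.50 CPM in Tom- at 3 counts. The erythroid-like cells also had 0 UMIs (at most 1.89 CPM). The 59 Tom- smooth muscle-like cells gave 65.7 CPM (47.9 to 87.9), the highest level of any class, but all 45 UMIs lay in 5 cells and 24 of them in 1 cell. Without the Il6 UMIs of that cell the level was 30.7 CPM. No Tom+ value could be set beside it because that library held 1 smooth muscle-like cell.

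Lif was seen mainly in fibroblast-like cells, with 39 UMIs in 33 cells (5.83 CPM, 4.15 to 7.98) in Tom+ and 435 UMIs in 385 cells (7.79 CPM, 7.08 to 8.56) in Tom-. The ratio was 0.749 (0.525 to 1.04), and 0.770 (0.532 to 1.08) without the shared barcodes. Mesothelial-like cells gave 0.576 CPM in Tom+ against 1.13 CPM in Tom-, and every other compared class stayed at or under 0.446 CPM in both libraries. Erythroid-like cells gave 0.629 CPM from 1 UMI. Il6 and Lif thus lay in different classes: the mesothelial and blood endothelial-like classes carried Il6 with almost no Lif, and fibroblast-like cells carried Lif with little Il6. The fibroblast ratio of Il6 was 0.614 (0.193 to 1.51), and 0.428 (0.0861 to 1.31) without the shared barcodes. Both ligands thus had point values below 1 in fibroblasts, with intervals that included 1.

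Il6st, the gp130 chain shared by most IL-6 family receptors, was present in all compared classes. It stood at 718 CPM (678 to 759) in Tom+ against 630.0 CPM (608 to 652) in Tom- blood endothelial-like cells. Lymphatic endothelial-like cells had 440.4 CPM in Tom+ against 402 CPM in Tom-, and mesothelial-like cells 359 and 409 CPM. Fibroblast-like cells followed at 239 CPM (228 to 251) in Tom+ against 169 CPM (165 to 172) in Tom-. Basal cells had 70.0 CPM in Tom+ against 82.4 CPM in Tom-, and umbrella cells 57.7 and 56.3 CPM, above the 33.3 CPM (25.0 to 43.6) of the erythroid-like cells. Blood endothelium therefore led this order in both libraries and urothelium closed it among the compared classes. The intervals of lymphatic and mesothelial-like cells overlap in Tom- and lie apart in Tom+.

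Lifr, which encodes the chain that binds LIF, was the most endothelial of the receptors. Blood endothelial-like cells held 356 CPM (328 to 385) in Tom+ against 355 CPM (339 to 372) in Tom-. Lymphatic endothelial-like cells held 82.3 CPM in Tom+ against 69.8 CPM in Tom-, and mesothelial-like cells 25.4 and 22.8 CPM. Fibroblast-like cells held 32.6 CPM (28.4 to 37.2) in Tom+ against 48.4 CPM (46.6 to 50.3) in Tom-. Lifr thus stood highest where Lif was nearly absent. The Tom- smooth muscle-like cells, with 97.9 CPM (75.8 to 124), could not be ordered against lymphatic endothelium. Basal cells (4.13 CPM in Tom+ against 6.49 CPM in Tom-) and umbrella cells (4.91 and 5.15 CPM) lay below the 13.8 CPM of erythroid-like cells. That level rests on 22 UMIs in 14 Tom- cells, and whether urothelial Lifr was background was not tested.

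Osmr, which pairs with gp130 in the oncostatin M receptor, was highest in lymphatic endothelial-like cells, at 151 CPM (117 to 192) in Tom+ against 135 CPM (115 to 157) in Tom-. Blood endothelial-like cells followed at 97.0 CPM (82.9 to 113) in Tom+ against 116 CPM (107 to 125) in Tom-, and in Tom- these intervals overlap. Mesothelial-like cells had 55.0 CPM in Tom+ against 60.3 CPM in Tom-, fibroblast-like cells 45.3 and 44.6 CPM, basal cells 25.8 and 29.1 CPM, and umbrella cells 24.1 and 25.4 CPM. The erythroid-like level was 6.92 CPM (3.45 to 12.4), so all 6 classes stood above it. No UMI of Osm, the ligand of this receptor, was seen in either library.

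**Figure D1:**
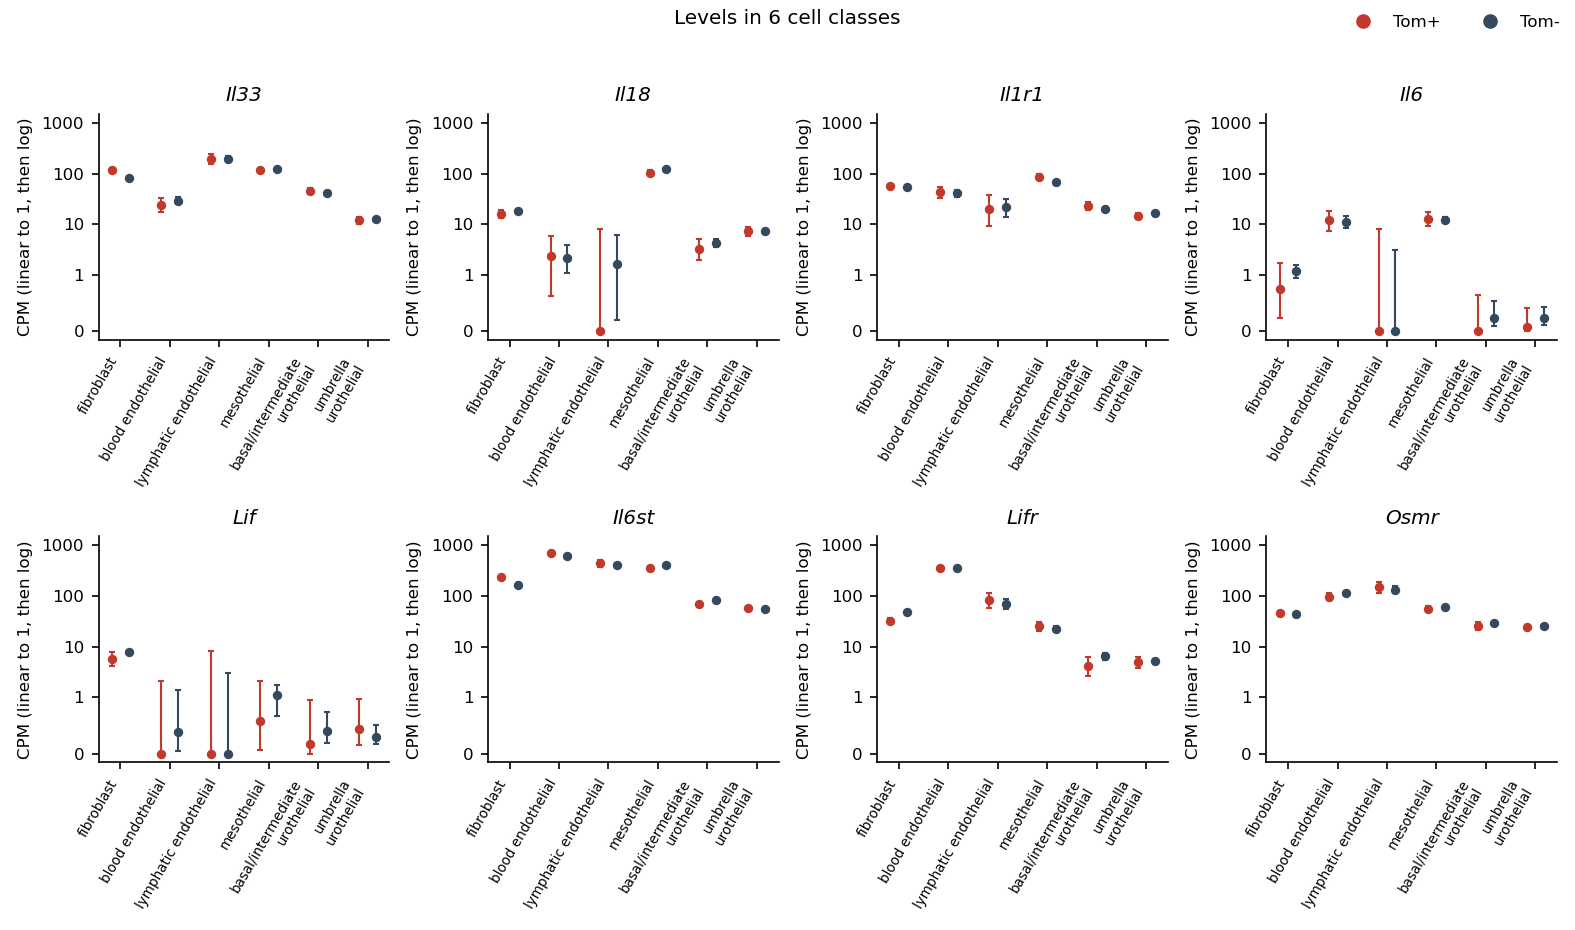
CPM of 8 genes in 6 cell classes, with Tom+ points left of Tom- points and exact 95% Poisson intervals; the axis is linear up to 1 CPM and logarithmic above. Il18 peaked in mesothelial-like cells (103 CPM in Tom+ against 120.5 CPM in Tom-), Lifr in blood endothelial-like cells (356 and 355 CPM) and Il33 in lymphatic endothelial-like cells (196 and 197 CPM).

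A gene counted as measured in a class when it reached 10 CPM in either library and 20 UMIs in the libraries together, and as called when its level on the log2(CPM + 1) scale differed by at least 1.5 times between libraries. Of the 60 pairs of a gene and a compared class, 32 were measured, and none of the 32 was called in either direction. In fibroblast-like cells 0 of 6 measured genes were called, where 1.58% of 8934 measured genes were at least 1.5 times higher in Tom+ and 2.29% at least 1.5 times lower. In blood endothelial-like cells 0 of 6 were called, against 3.49% higher and 9.1% lower over all measured genes. In lymphatic endothelial-like cells it was 0 of 5, against 8.26% higher and 11.9% lower, and in mesothelial-like cells 0 of 7, against 1.96% higher and 1.25% lower. In basal cells it was 0 of 4, against 0.14% and 0.317%, and in umbrella cells 0 of 4, against 0.0534% and 0.387%. With shares this small, a count of 0 among 4 to 7 genes is near the background and is no result about these genes. Their median log2 ratio lay between -0.08 and 0.13 in the 6 classes, and that of all measured genes between -0.11 and -0.01.

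The fibroblast-like class held the ratios closest to the call. Il33 had a ratio of 1.43 (1.32 to 1.54), which was 1.38 (1.27 to 1.49) without the shared barcodes. Il6st had a ratio of 1.42 (1.34 to 1.5), and 1.41 without them. Lifr had a ratio of 0.674 (0.584 to 0.774), and 0.670 without them. The intervals of these 3 genes exclude equal levels, as far as counting error goes, and the shared barcodes barely moved them. The other measured genes had ratios of 1.03 for Il1r1, 1.02 for Osmr and 0.867 for Il18, and each interval included 1. Without the shared barcodes they were 1.02, 0.915 and 0.824, so that of Osmr turned direction, and the intervals again included 1. Some other ways of counting took Lifr and Il33 past the call: with every cell given equal weight the log2 ratio of Lifr was -0.71, and with thinned cells that of Il33 was 0.59. When every cell was thinned to 2000 UMIs, keeping 661 Tom+ and 4645 Tom- fibroblasts, Il33 was detected in 18.9% of Tom+ and 12.5% of Tom- cells, against 38.5% and 33.3% before thinning. Il6st was detected in 37.7% and 27.7% of the thinned cells (71.9% and 70.4% before), and Lifr in 6.2% and 9.24% (17.8% and 34.4% before).

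**Figure D2:**
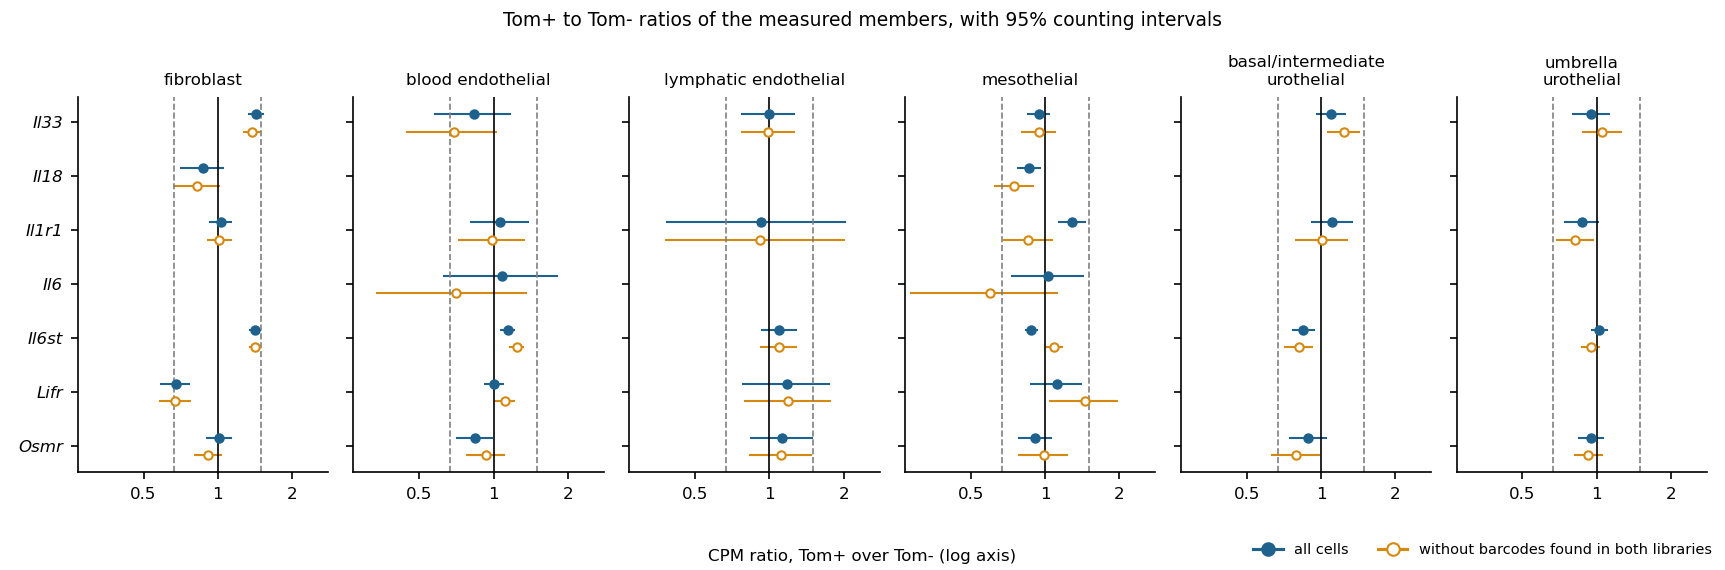
Ratio of Tom+ over Tom- CPM, on a logarithmic axis, for the 32 measured pairs of a gene and a class, with exact 95% intervals; filled blue points use all cells, hollow orange points leave out shared barcodes, and dashed lines mark 1.5 times in each direction. In fibroblast-like cells Il33 (1.43), Il6st (1.42) and Lifr (0.674) lay closest to the lines, and in mesothelial-like cells Il1r1 was 1.29 with all cells and 0.855 without shared barcodes.

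The fibroblast classes of the libraries differed in their make-up, and Il33, Il6st and Lifr varied among its sub-clusters by more than they differed between libraries. A sub-cluster led by Dner and Kcnn3 held 31.4% of Tom+ and 12.5% of Tom- fibroblasts, and had Il33 at 140.3 CPM in Tom+ against 126 CPM in Tom-, Il6st at 306 and 256 CPM, and Lifr at 17.8 and 25.6 CPM. A sub-cluster led by Cck and Ednrb held 6.19% of Tom+ and 19.6% of Tom- fibroblasts, and had Il33 at 10.3 CPM in Tom+ against 24.2 CPM in Tom-, Il6st at 76.2 and 86.0 CPM, and Lifr at 63.8 and 67.1 CPM. A sub-cluster led by Car3 and Tnc held 2.02% of Tom+ and 16% of Tom- fibroblasts, and in its 778 Tom- cells had Il33 at 3.35 CPM and Lifr at 76.3 CPM. The Tom+ library was thus rich in fibroblasts with high Il33 and Il6st and low Lifr, and poor in those with the opposite pattern. The sub-clusters were built without the 10 genes, so their levels did not define them.

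Weighting the Tom- sub-clusters by the Tom+ shares gave 113 CPM of Il33, 210.0 CPM of Il6st and 35.5 CPM of Lifr for the Tom- library. Against these, the Tom+ ratios were 1.04 for Il33, 1.14 for Il6st and 0.918 for Lifr, compared with 1.43, 1.42 and 0.674 for the whole class. The mean log2 ratio over the 7 sub-clusters with at least 30 cells in each library, each counted equally, was 0.02 for Il33, 0.12 for Il6st and -0.28 for Lifr. Within sub-clusters, Il33 in the sub-cluster led by Lsamp and Pex5l was 97.0 CPM in Tom+ against 71.2 CPM in Tom- (ratio 1.36, 1.12 to 1.64), and the ratio was 1.41 without the shared barcodes. Il6st in the Dner and Kcnn3 sub-cluster had a ratio of 1.19 (1.08 to 1.32), and 1.2 without them. In the sub-cluster led by Fam167a and Tes, Il33 was 97.1 CPM in Tom+ against 97.6 CPM in Tom- (ratio 0.995, and 1.04 without them). Under both weightings the ratios of all 3 genes were closer to 1 than in the whole class, and their order differed between the weightings: Il6st was the farthest from 1 with the Tom+ shares, and Lifr with equal counting. In the sub-cluster led by Ctla2a and Sult1e1 all 30 Tom+ cells carried a shared barcode. Without the shared barcodes the ratios to the weighted Tom- level were 1.06 for Il33, 1.16 for Il6st and 0.914 for Lifr. The mean log2 ratios over the remaining 6 sub-clusters were 0.01 for Il33, 0.12 for Il6st and -0.45 for Lifr.

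**Figure D3:**
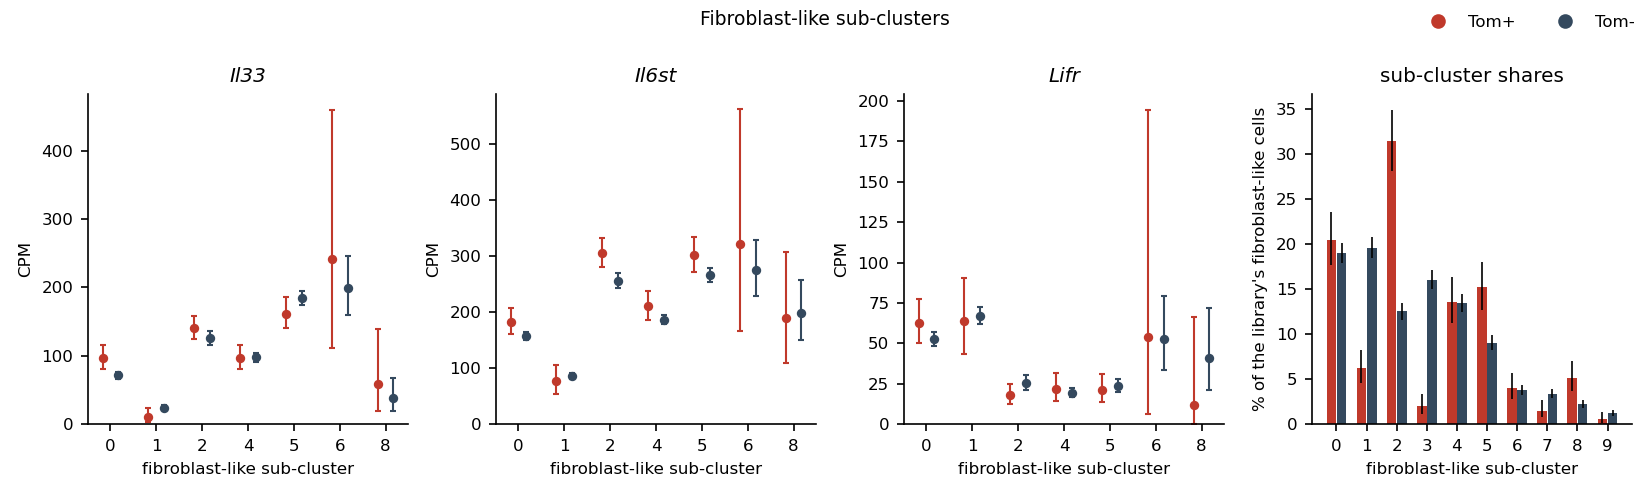
CPM of Il33, Il6st and Lifr in the 7 fibroblast sub-clusters with at least 30 cells in each library, with exact 95% intervals, and the percentage of each library's fibroblast-like cells in all 10 sub-clusters, Tom+ left of Tom-. The Dner and Kcnn3 sub-cluster (31.4% of Tom+ and 12.5% of Tom-) was high in Il33 and Il6st, and the Cck and Ednrb sub-cluster (6.19% and 19.6%) was high in Lifr.

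In mesothelial-like cells Il1r1 had a ratio of 1.29 (1.13 to 1.46) and Il6st a ratio of 0.877 (0.825 to 0.932), but both turned direction without the shared barcodes, to 0.855 and 1.08. Il18 had a ratio of 0.859 (0.766 to 0.961), and 0.749 (0.619 to 0.899) without them. Il6 had a ratio of 1.03, and 0.600 (0.283 to 1.13) without them, when 10 Tom+ UMIs were left. Lifr had a ratio of 1.11 (0.872 to 1.41), and 1.45 (1.04 to 1.98) without them, an interval that no longer included 1. Il33 had a ratio of 0.944 and Osmr 0.913, and 0.943 and 0.99 without them. The shared barcodes made up 66 of the 161 Tom+ and 11 of the 766 Tom- mesothelial-like cells. They fell unevenly over the clusters of this class: 48 of the 72 Tom+ cells of the cluster led by Slpi, Msln and Lrrn4 carried one, and 15 of the 81 Tom+ cells of the cluster led by Prg4, Slpi and Msln.

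Nearly all mesothelial Il6 lay in the Slpi, Msln and Lrrn4 cluster, at 24.2 CPM in 72 Tom+ cells and 23.8 CPM in 317 Tom- cells. The Prg4-led cluster held 0 CPM in 81 Tom+ cells and 1.45 CPM in 441 Tom- cells. Il1r1 followed the same division, with 136 CPM in Tom+ against 112 CPM in Tom- in the Il6-bearing cluster, against 23.3 and 26.1 CPM in the Prg4-led cluster. Il6st ran the other way, with 280.3 CPM in Tom+ against 297 CPM in Tom- in the Il6-bearing cluster and 539 and 529 CPM in the Prg4-led cluster. The Il6-bearing cluster also had the higher summed level of 16 NF-kB target genes, 4209 CPM in Tom+ against 3885 CPM in Tom-, against 1342 and 1330 CPM in the Prg4-led cluster. Over the whole class the highest of these genes were Cxcl5 (766 CPM in Tom+ against 563 CPM in Tom-), Ccl2 (536 and 457 CPM) and Nfkbia (486 and 473 CPM). The NF-kB sums of the clusters are not split by gene here. In the Il6-bearing cluster the sum of 16 STAT3 target genes was 11884 CPM in Tom+ against 12081 CPM in Tom-, against 2502 and 2844 CPM in the Prg4-led cluster. Most of that gap lay in the acute-phase gene Saa3, at 8790 CPM in Tom+ against 8912 CPM in Tom- in the Il6-bearing cluster, and without it the sums were 3094 and 3169 CPM, against 2468 and 2640 CPM. Within the Il6-bearing cluster the ratio of Il1r1 was 1.21 (1.05 to 1.40), and 1.42 (1.02 to 1.93) in the 24 Tom+ cells without a shared barcode. Leaving out the shared barcodes thus turned the class ratio of Il1r1 but not the ratio within the cluster that held most of it. The list of dendritic cell markers summed to 941 CPM in Tom+ against 1485 CPM in Tom- mesothelial-like cells, with Flt3, Xcr1, Clec9a and Cd209a at 0 and Ptprc, which encodes CD45, at 0 in both libraries.

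In blood endothelial-like cells Il6st had a class ratio of 1.14 (1.07 to 1.22), and 1.24 without the shared barcodes. The cluster led by Vwf and Selp, genes of venous and activated endothelium, held 134 of the 176 Tom+ cells but 287 of the 689 Tom- cells. Within it Il6st was 811 CPM in Tom+ against 998 CPM in Tom-, a ratio of 0.812 (0.757 to 0.872), which runs against the ratio of the class. It was 0.913 (0.847 to 0.984) without the shared barcodes. Il33 in this cluster was 29.8 CPM in Tom+ against 51.0 CPM in Tom- (ratio 0.584, 0.402 to 0.835), and 0.502 without the shared barcodes, a larger difference than in the class as a whole (0.830). Il1r1 there was 44.7 CPM in Tom+ against 61.6 CPM in Tom- (ratio 0.726, 0.532 to 0.98), and the ratio was 0.673 (0.471 to 0.945) without them. In the Esm1-led cluster Lifr was 477 CPM in 28 Tom+ cells and 356 CPM in 203 Tom- cells (ratio 1.34, 1.08 to 1.66), while Il6st was 324 CPM in both, and none of these Tom+ cells carried a shared barcode. Over the whole class the remaining ratios were 1.09 (0.624 to 1.82) for Il6, 1.0 (0.913 to 1.10) for Lifr, 1.06 (0.799 to 1.39) for Il1r1 and 0.838 (0.702 to 0.997) for Osmr. Without the shared barcodes Il6 was 0.707 (0.334 to 1.36), Il33 0.688 (0.442 to 1.04), Il1r1 0.987 (0.719 to 1.34) and Osmr 0.928 (0.770 to 1.11). Lifr was 1.11 (1.01 to 1.22) without them, so that its interval no longer included 1, while that of Osmr then did. These clusters were singled out after their values had been seen.

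**Figure D4:**
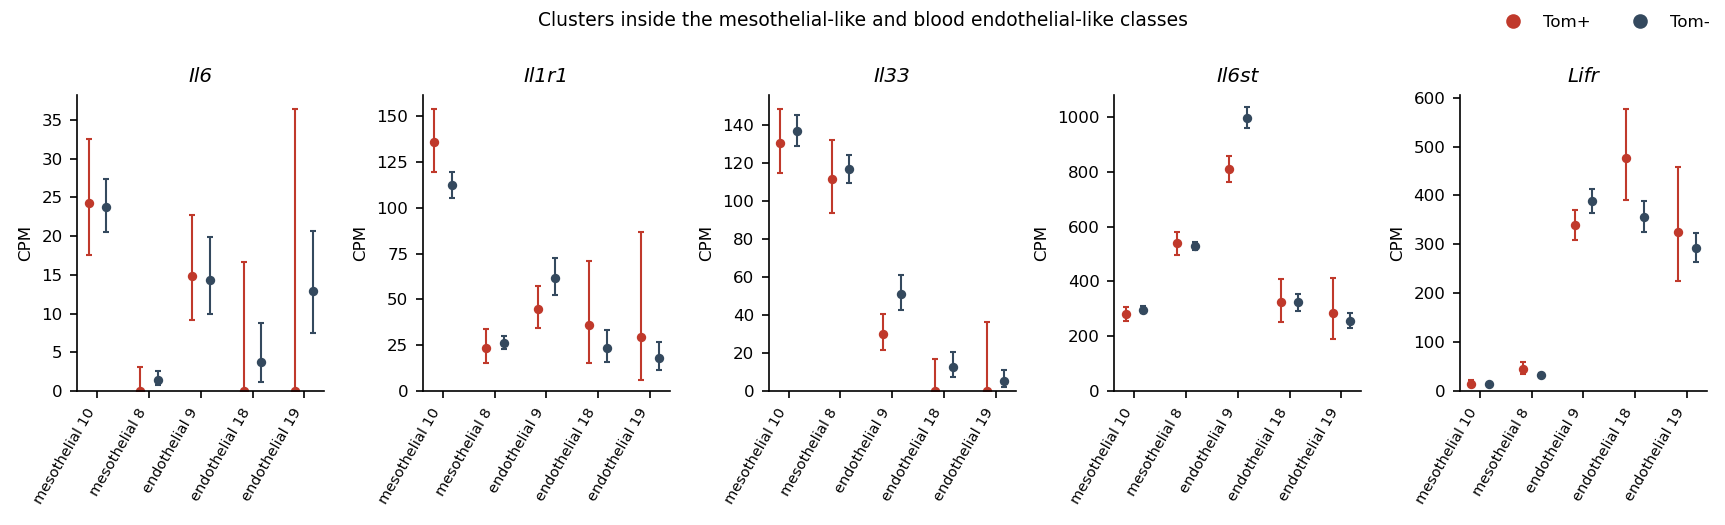
CPM of Il6, Il1r1, Il33, Il6st and Lifr in 2 mesothelial-like and 3 blood endothelial-like clusters, Tom+ left of Tom-, with exact 95% intervals. Of the 2 mesothelial clusters, cluster 10 had the higher Il6 and Il1r1 (Il1r1 136 CPM in Tom+ against 112 CPM in Tom-). In the endothelial cluster 9 Il33 and Il6st were both lower in Tom+ (Il33 29.8 CPM against 51.0 CPM).

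In basal or intermediate cells Il6st had a ratio of 0.850 (0.762 to 0.946), and 0.811 without the shared barcodes, and Il33 a ratio of 1.10 (0.959 to 1.26), and 1.24 (1.05 to 1.44) without them. Osmr had a ratio of 0.887 (0.739 to 1.06) and Il1r1 of 1.11 (0.911 to 1.35), and 0.790 (0.626 to 0.987) and 1.01 without them. In umbrella cells the 4 measured ratios lay between 0.868 for Il1r1 and 1.02 for Il6st, and every interval included 1. Without the shared barcodes Il1r1 was 0.819 (0.682 to 0.977), which lies below 1. Il6st was then 0.946, Il33 1.05 and Osmr 0.925, with intervals that included 1. In lymphatic endothelial-like cells the 5 measured ratios lay between 0.926 for Il1r1 and 1.18 for Lifr, again with intervals that included 1, on 89 Tom+ and 196 Tom- cells. They lay between 0.916 and 1.19 without the shared barcodes.

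Cells with an Il6 UMI differed from their neighbours in a group of 20 immediate-early and heat-shock genes, such as Fos, Jun and Egr1, which tissue dissociation is known to induce. In blood endothelial-like cells the summed level of these genes had a median of 21744 CPM in the 11 Tom+ cells with an Il6 UMI and 22432 CPM in the 20 such Tom- cells, against 6664 and 5141 CPM in cells without one. In fibroblast-like cells it was 28889 CPM in 4 Tom+ cells and 15864 CPM in 34 Tom- cells with an Il6 UMI, against 4297 and 4704 CPM without. In the Il6-bearing mesothelial cluster no such gap appeared, with 4697 CPM in 15 Tom+ cells and 6435 CPM in 57 Tom- cells with an Il6 UMI, against 5917 and 4633 CPM without. Fibroblast-like cells with a Lif UMI did not stand apart either, at 4150 CPM in 33 Tom+ cells and 5219 CPM in 385 Tom- cells, against 4324 and 4702 CPM in those without. Il6 in endothelial and fibroblast-like cells was thus found in cells rich in immediate-early transcripts, and Il6 in mesothelium and Lif in fibroblasts were not. The part of dissociation in the endothelial and fibroblast Il6 was not tested. Cells with an Il6 UMI were also deeper in most groups, with medians of 8007 UMIs in Tom+ and 9815 UMIs in Tom- blood endothelium, against 7692 and 6295 UMIs without. Ptprc had 0 UMIs in all groups of cells with an Il6 UMI.

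**Figure D5:**
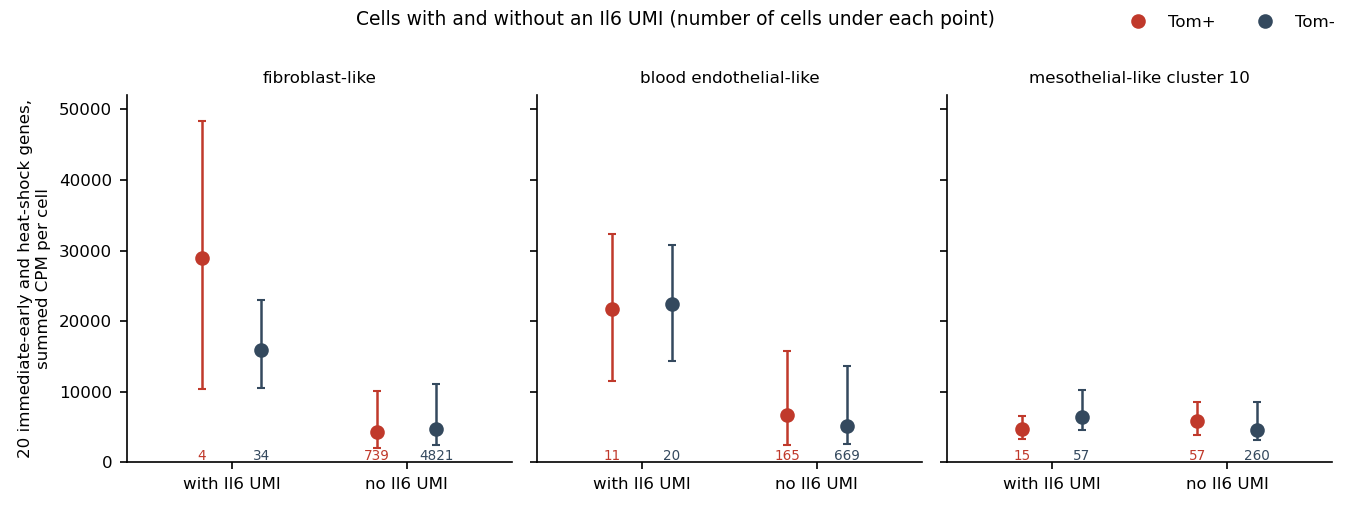
Summed CPM of 20 immediate-early and heat-shock genes per cell, as median and quartiles, in cells with and without an Il6 UMI, Tom+ left of Tom-, with the number of cells beside each point. In blood endothelial-like cells the medians were 21744 CPM in Tom+ against 22432 CPM in Tom- with an Il6 UMI, against 6664 and 5141 CPM without, and in mesothelial cluster 10 the groups overlapped.

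The other genes of both pathways were followed as lists. Of 11 further IL-1 family ligands 7 were among the features and none was measured in any class, with 2 UMIs of Il1a and 3 of Il1b in all Tom+ cells used, and 4 and 10 in the Tom- cells. Of 9 further IL-6 family ligands none was measured in fibroblast-like cells, where Il11 stood at 2.84 CPM in Tom+ against 3.28 CPM in Tom-, and Osm, Il27 and Il31 had 0 UMIs in both libraries. Ctf1, which encodes cardiotrophin-1, was measured in mesothelial-like cells at 19.9 CPM in Tom+ against 26.9 CPM in Tom-. The ligands that bind Il1r1 and Osmr were therefore at or near 0 in these CD45-depleted cells, while both receptors were measured in all 6 compared classes.

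Among 9 further receptors and decoys of the IL-1 family, 3 were measured in fibroblast-like cells and none was called. In mesothelial-like cells 4 were measured and 1 was called, Il18r1, which encodes the ligand-binding chain of the IL-18 receptor: 83.3 CPM in Tom+ against 128 CPM in Tom- (ratio 0.651, 0.574 to 0.737). Without the shared barcodes its ratio was 0.853 (0.718 to 1.01) and no longer called. In this class 1.25% of all measured genes were called lower. The Prg4-led cluster held Il18r1 at 129.9 CPM in Tom+ against 181 CPM in Tom-, and the Il6-bearing cluster at 62.2 and 77.1 CPM. The IL-18 binding protein Il18bp stood at 28.8 CPM in Tom+ against 35.7 CPM in Tom- in the same class. Transcripts of IL-18, its ligand-binding receptor chain and its decoy were thus all found in mesothelium. Il18rap, the IL-18 receptor accessory protein, did not count as measured there, at 1.44 CPM in Tom+ against 2.55 CPM in Tom-. In lymphatic endothelial-like cells Sigirr, an inhibitory receptor of this family, was called higher in Tom+ at 51.2 CPM, against 26.6 CPM in Tom-, on 23 and 32 UMIs. No Tom+ cell of that class carried a shared barcode, and 8.26% of its measured genes were called higher. Of 5 further IL-6 family receptors 2 were measured in fibroblast-like cells, and neither was called: Il6ra was 61.9 CPM in Tom+ against 55.5 CPM in Tom-, and Il11ra1 168 and 161 CPM.

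Downstream, 15 of 21 IL-1 signalling genes were measured in fibroblast-like cells and none was called, with a median log2 ratio of -0.07 against -0.01 for all measured genes. The lowest was Pycard, the inflammasome adaptor, with 33.4 CPM in Tom+ against 50.2 CPM in Tom- (log2 ratio -0.57). Of 13 IL-6 signalling genes 11 were measured and none was called, with a median of 0.03, and Stat3 stood at 99.6 CPM in Tom+ against 91.2 CPM in Tom-. Socs3, the feedback inhibitor induced by STAT3, stood at 175 CPM in Tom+ against 164 CPM in Tom-. The called genes of the target lists are named after their values were seen. Among 16 STAT3 target genes, all measured, 2 were called higher in Tom+ fibroblasts and 3 lower, with a median of -0.25. Of all measured genes in this class 1.58% were called higher and 2.29% lower. Fgl2, which encodes a fibrinogen-like protein, was 39.2 CPM in Tom+ against 19.2 CPM in Tom- (ratio 2.04), and 1.93 without the shared barcodes. The transglutaminase Tgm2 was lower, at 84.2 CPM in Tom+ against 154 CPM in Tom- (ratio 0.548), and 0.567 without the shared barcodes. Both genes stood above the erythroid-like level, which was 0.629 CPM for Fgl2 and 35.9 CPM for Tgm2. The other 3 called genes did not. Saa3 was 4.94 CPM in Tom+ against 21.4 CPM in Tom- fibroblasts, under the 394 CPM (364 to 426) of erythroid-like cells, and the acute-phase gene Hp was 9.72 and 16.9 CPM, under 46.5 CPM. Lcn2, a lipocalin that binds siderophores, was 11.1 CPM in Tom+ against 2.60 CPM in Tom-, against 13.2 CPM (8.18 to 20.2) in erythroid-like cells. Of its 74 Tom+ UMIs 71 lay in cells with shared barcodes. Saa3 was far higher in erythroid-like cells than in Tom- fibroblasts, so that level cannot stand for free RNA common to all cells. It also has no Tom+ counterpart. Whether these 3 genes were background in fibroblasts was not tested, and no difference is drawn from them. The same holds for Saa3 in the endothelial and urothelial classes, where it was also past 1.5 times at 2.23 to 4.45 CPM in Tom+ against 10.1 to 33.1 CPM in Tom-. Of 16 NF-kB target genes 10 were measured and 1 was called, the prostaglandin synthase Ptgs2 (40.4 CPM in Tom+ against 21.2 CPM in Tom-), with a ratio of 1.90 and, without the shared barcodes, 1.6. The ratios of Fgl2, Tgm2 and Ptgs2 are of the whole class and were not weighted by the sub-cluster shares.

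In blood endothelial-like cells 3 of 10 measured NF-kB target genes were called, all lower in Tom+, where 9.1% of all measured genes were called lower. They were Relb, an NF-kB subunit (25.4 CPM in Tom+ against 39.6 CPM in Tom-), Tnfaip3, an inhibitor of NF-kB (9.82 and 15.7 CPM), and Ptgs2 (4.04 and 10.8 CPM). The interval of the Tnfaip3 ratio included 1, and Ptgs2 rested on 7 Tom+ UMIs, at a level near the 3.77 CPM of erythroid-like cells. Without the shared barcodes the Tnfaip3 ratio was 0.751 (0.409 to 1.30) and no longer called. Relb (0.546) and Ptgs2 (0.399) stayed past the call. The median log2 ratio of the list was -0.09, against -0.11 for all measured genes. Among 12 measured IL-6 signalling genes of this class 1 was called, Pias3, which encodes an inhibitor of STAT3 (11 CPM in Tom+ against 18.6 CPM in Tom-). Its ratio without the shared barcodes was 0.694 (0.394 to 1.16) and no longer called. Timp1 and Serpina3n of the STAT3 list were also past 1.5 times, at levels within or under the erythroid-like intervals. In lymphatic endothelial-like cells 3 of 13 IL-1 signalling genes were called, the kinase genes Irak3 and Map3k7 higher and Irak4 lower. Of 10 IL-6 signalling genes 2 were called, Socs3 and Ptpn11, both higher. In this class 8.26% of all measured genes were called higher and 11.9% lower, so counts this small are no result about the lists. Socs3 there was 100.1 CPM in Tom+ against 61.5 CPM in Tom- (ratio 1.63, 1.10 to 2.39), and Map3k7 was 53.4 and 22.5 CPM on 24 and 27 UMIs. The intervals of Irak3, Irak4 and Ptpn11 included 1. Relb was lower in that class on 4 Tom+ UMIs. In mesothelial-like cells 1 of 15 NF-kB target genes was called, where 1.25% of all measured genes were called lower. It was the chemokine gene Cxcl2, at 7.49 CPM in Tom+ against 19.6 CPM in Tom-, and all 26 of its Tom+ UMIs lay in cells with shared barcodes. The IL-1 and IL-6 signalling lists had no called gene in mesothelial, basal or umbrella cells.

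Across the 15 profiles of a class in a library with at least 50 cells, the members' patterns were set beside those of 11866 genes by Pearson's r of log2(CPM + 1). The genes most like Il33 were Plscr3 (0.927), Manba (0.925) and Elf4 (0.924), and those most like Il18 were Tmem37 (0.954), Celf4 (0.948) and Gjb5 (0.945). Il1r1 was most like Tango6 (0.954), Snapc2 (0.954) and Sp3 (0.952). For Il6 they were Rasgef1a (0.951), Gcnt2 (0.945) and Grb14 (0.927). In the receptor chains, Il6st was closest to Tap2 (0.986), Irgm1 (0.97) and Tpra1 (0.968), Lifr to Myl4 (0.939), Abcg2 (0.937) and Cbfa2t3 (0.935), and Osmr to Cdc42bpb (0.987), Git1 (0.984) and Ttc14 (0.983). Profiles of a class in both libraries share the mouse and the class definition, so these values describe likeness and carry no p-value. Among the 7 members with a level of at least 10 CPM in a class, Il6st and Osmr were the most alike (0.911), and Il18 and Il6st had no common pattern (-0.00).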

How the data were processed

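Single-cell RNA-seq was measured in 1 Tom+ and 1 Tom- library. The deposited matrices hold UMI counts per gene and barcode, not normalized by the authors. Per the submitters' processing notes they were made with Cell Ranger 7.0.0 on mm10, while per the file headers the matrix software version is 3.0.2. How barcodes were selected before deposit is not given in the sources used here; the lowest barcode total was 500 UMIs.

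Barcodes were kept from 1000 UMIs and 500 genes upward if mitochondrial transcripts made up less than 15% (1893 Tom+ and 10595 Tom-). Simulated-doublet scores, at an assumed rate of 0.8% per 1000 cells, removed 12 Tom+ cells (0.634%) and 709 Tom- cells (6.69%). Both libraries were clustered together with scanpy 1.11.5 and leidenalg 0.10.2 (2000 variable genes, 30 components, 15 neighbours, resolution 1), leaving out the 10 genes, their pathway lists and tdTomato. The 27 clusters were named from 20 marker lists, and 4 stayed unnamed (163 Tom+ and 916 Tom- cells). In fibroblast-like cells all 9 fibroblast markers were detected. In basal cells Krt17 was at 0. Names were rebuilt here and may differ from the study's.

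UMIs were summed per class and library and divided by the class total to give CPM. Intervals are exact Poisson, Clopper-Pearson or conditional binomial, at 95%, computed with scipy 1.17.1 in Python 3.11.15. TMM factors came from edgeR 4.0.16. PCR copies are collapsed by UMIs, but cells of 1 library are not replicates, so no test was run. The ratio code was tested on simulated data. The 3′ counts do not separate isoforms, and no other gene's exon overlaps a member's exons on the same strand. All 10 members are named. Further pathway genes could be named where they had the highest or lowest ratio of their list or at least 100 CPM. Called genes outside that rule are named after their values were seen. The 3 genes of most similar pattern are named for each member with at least 10 CPM in a class. The members and lists were chosen with earlier results of these data known. Smooth muscle-like (1 Tom+ cell), Schwann-like (0), erythroid-like (0) and prostate or seminal vesicle-like cells (14) were not compared.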

Additional observations from a re-analysis of the deposited data

Results flagged for a closer look

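Il6st, the gp130 chain, moved in opposite directions between classes: its Tom+ over Tom- ratio was 1.42 in fibroblast-like cells and 1.14 in blood endothelial-like cells, but 0.877 in mesothelial-like cells and 0.85 in basal or intermediate urothelial-like cells. The difference between classes was not tested, since each class has 1 library a group. Several values stand beside these ratios. In fibroblast-like cells the ratio was 1.14 against Tom- cells weighted to the Tom+ sub-cluster shares. In the blood endothelial cluster led by Vwf and Selp it was 0.812. In mesothelial-like cells it was 1.08 (0.996 to 1.18) without the shared barcodes, and in basal cells 0.811. The part of these values in the pattern was not tested.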

How the results depend on the processing

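No paired analysis was possible because each group is 1 library. In the main analysis 0 genes were called in fibroblast-like cells and 0 of 32 pairs of a gene and a class. Kept doublets gave 1 lower pair (Lifr in umbrella cells). Leiden resolution 0.5 gave 1 higher pair (Il18 in basal cells), as did separate clustering (Il33 in basal cells). With the 10 genes and the pathway lists allowed among the variable genes, 1 fibroblast gene was higher (Il33) and 1 lower (Lifr), for 1 pair each way. The per-cell marker gate, with 3 classes compared, gave 1 lower fibroblast gene (Lifr), 1 higher pair (Il6 in blood endothelium, 14 and 9 UMIs) and 1 lower pair. Equal weight per cell gave 1 lower fibroblast gene (Lifr), 1 higher pair (Il6 in blood endothelium) and 1 lower pair. Thinning gave 1 higher fibroblast gene (Il33), 1 higher and 4 lower pairs (Il33 in blood endothelium and umbrella cells, Osmr in mesothelium, Il1r1 in umbrella cells). Leaving out shared barcodes gave 1 lower pair (Il6 in mesothelium). No low-value filter gave 1 higher pair (Il1rn in basal cells) and 2 lower pairs (Il18 in lymphatic endothelium, Il1rl1 in mesothelium). Leaving out the UMIs of each gene in its top cell gave 1 lower fibroblast gene (Lifr) and 1 lower pair. The cause was not tested. The other settings gave 0. Of the values called under these settings, 2 turned direction against the main analysis: Il6 in mesothelium (log2 ratio -0.67 without shared barcodes, 0.04 with all cells) and Il18 in basal cells (0.66 at resolution 0.5, -0.30 at resolution 1). Of the single log2 ratios 509 stayed within the counting interval of the main value and 59 did not. Levels were also followed, for each of the 10 genes in the named class and library where it was highest. Of these CPM values 143 stayed within the interval of the main value and 32 did not. In fibroblasts the log2 ratio of Il6st ranged between 0.12 and 0.56, that of Lifr between -0.71 and -0.18, and that of Il33 between -0.15 and 0.59. Leaving out the fibroblast cluster led by Asz1 and Hsd11b1 (18 Tom+ and 790 Tom- cells), chosen after seeing the data, gave 0.39 for Il6st and 0.27 for Il33. The 89 to 176 Tom+ cells of the endothelial, mesothelial and basal classes limit what can be seen.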
